A study of Caenorhabditis elegans with 36 samples.

Results

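The ugt genes of Caenorhabditis elegans encode UDP-glucuronosyltransferases, and here they are described across heat and loss of the small RNA factor MUT-16. Members were taken as the genes whose WBcel235 name begins with ugt-, and they were matched by sequence name to the entries of the mRNA-seq and small RNA-seq count files. All 67 such genes were found among the 45904 gene names in the files, and each is annotated as protein-coding. The samples were whole day 1 adults of the strain NL1810, which carries mut-16(pk710), and of the wild-type strain N2. Synchronized larvae were plated at the first stage on enriched peptone plates and grown at 25°C for 48 h or at 20°C for 68 h, so the temperature and the time of harvest cannot be told apart. The 4 groups were mut-16 mutants at 25°C, mut-16 mutants at 20°C, wild-type animals at 25°C and wild-type animals at 20°C, with 3 biological replicates of each in each assay and 24 libraries in all. The mutant is 1 allele in 1 strain.

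UDP-glucuronosyltransferases join a sugar from a UDP-sugar donor to small fat-soluble molecules, which makes them easier to dissolve and to export. They belong to the conjugation step (phase II) of detoxification, after cytochrome P450 enzymes (phase I) and before export by ABC transporters (phase III), and in nematodes the intestine is a main site of this work. Roles of single members are mostly known only by their likeness to the family, so the members are described below as enzymes of one kind. MUT-16 is a scaffold protein of the germline Mutator foci, where RNA-dependent RNA polymerases make 22G small interfering RNAs that are antisense to mRNAs. The small RNA counts per gene used here do not separate antisense from sense reads.

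Levels are given as reads per 1000000 counts of a library (RPM). The libraries held 15432009 to 34195602 counts in mRNA-seq and 4760502 to 19060841 in small RNA-seq. The mut-16 gene itself had 49.4, 40.6 and 42.3 RPM of mRNA in mut-16 mutants at 25°C and 64.3, 51.7 and 40.8 RPM in mut-16 mutants at 20°C, against 127, 109 and 105 RPM in wild-type animals at 25°C and 127, 117 and 119 RPM in wild-type animals at 20°C, so each of the 6 mutant mRNA libraries lay below each of the 6 wild-type libraries. Defining markers of intestine, germline, sperm, neuron, muscle and hypodermis were all above 0 in some library, and the sums of several lists moved with the groups. Summed over 10 germline genes, mRNA ranged from 3862 to 4027 RPM in mut-16 mutants at 25°C, below the ranges of 5320.3 to 5446 RPM in mut-16 mutants at 20°C, 5657 to 5684 RPM in wild-type animals at 25°C and 4893 to 5662 RPM in wild-type animals at 20°C. Summed over 7 hypodermis and cuticle genes, it ranged from 4297 to 4733 RPM, 1967 to 2394 RPM, 2328 to 2851 RPM and 1008 to 1376 RPM in the same order of groups. Sums of 36 sperm genes ranged from 503 to 576 RPM, 321 to 432 RPM, 61.4 to 99.1 RPM and 7.39 to 9.19 RPM in that order. For 7 muscle genes they ranged from 2588 to 3134 RPM in mut-16 mutants at 25°C and from 1171 to 1813 RPM over the other 3 groups, and for 7 neuronal genes from 285 to 299 RPM and from 194 to 247 RPM, so both lists, like the ugt genes, were highest in mut-16 mutants at 25°C. Summed over 12 intestinal genes, it ranged from 22329 to 35446 RPM, 31235 to 38384 RPM, 34163 to 38395 RPM and 34786 to 43467 RPM in the same order, and the 35446 RPM of 1 library of mut-16 mutants at 25°C stood apart from the 22329 and 22762 RPM of the other two. In whole animals, fewer cells of a type and less RNA per cell cannot be told apart, and the part of these tissue shifts in the ugt results was not tested.

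The members are spread unevenly over the genome and often lie side by side. Chromosome V holds 42 of them, chromosome IV 12, chromosome I 5, chromosome X 4, chromosome III 3 and chromosome II 1. When members no more than 20 kb apart were joined, 37 members fell into 10 groups of neighbours. The largest group, at 4887165 to 4911399 on chromosome V (WBcel235), holds 8 genes, namely ugt-12, ugt-11, ugt-9, ugt-10, ugt-67, ugt-8, ugt-14 and ugt-13. Another 7 lie at 12790676 to 12830114 on the same chromosome (ugt-5, ugt-4, ugt-6, ugt-3, ugt-18, ugt-16 and ugt-15), and 6 lie at 7139475 to 7169281 (ugt-40, ugt-37, ugt-38, ugt-39, ugt-41 and ugt-36). Summed exon length ranged from 1542 to 2909 bases with a median of 1707 bases.

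Despite this likeness, most members can be told apart from one another by mRNA reads. Of the 67 members, 61 share no stretch of 75 bases, the sequencing read length, with another member in their annotated exons, and 28 share no stretch of 22 bases, the length of most small interfering RNAs. The closest pair is ugt-38 and ugt-39: 32.0% of the 75-base stretches of ugt-38 are also in ugt-39, and 25.3% of those of ugt-39 are also in ugt-38. For ugt-19 and ugt-20 the shared parts are 7.79% of ugt-19 and 7.88% of ugt-20. In mRNA-seq, values of these 4 genes, and of ugt-9 and ugt-67 (2.52% and 2.71% shared), depend on how Salmon divided reads shared between members. Small RNA reads are shorter, so small RNA values of members that share stretches of 22 bases can depend on this division too. Stretches shared with genes outside the family were not counted. ugt-49 shares none with a member, yet its estimated mRNA count in mut-16 25°C replicate 1 was 1221.19, not a whole number. Exons of ugt-37 and ugt-40 overlap by 42 bases on the same strand, those of ugt-22 overlap srz-29 on the opposite strand by 309 bases, and those of ugt-50 overlap nhr-26 by 340 bases; the strand setting of the counting is not given in the sources used here, so reads of overlapping genes cannot be assigned with certainty.

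The 250 bases before the annotated start of each gene were searched on both strands for 4 short motifs. TGATAA, the core bound by GATA factors such as the intestinal ELT-2, was found before 39 of 67 members (58.2%) and before 5347 of 19973 protein-coding genes (26.8%). GTCAT, the core of SKN-1 sites, was found before 43.3% of members and 31.3% of all genes. GCGTG, the core of the xenobiotic response element, was found before 11.9% of members and 16.4% of all genes, and GAANNTTC, a heat shock element core, before 8.96% and 15.7%. No GATA match in the member windows overlapped a match of another motif, and the windows of 16 members run into exons of other genes. A match is a description of letters and not a bound site. In mut-16 mutants, mRNA was called higher at 25°C for 29 of 35 tested members with a GATA match and 19 of 22 without, against 40.2% of all tested genes. The windows of 4 members whose mRNA values are given below are shown from the assembly, 5′ to 3′ toward the gene, with each GATA match on either strand in capitals (TTATCA is the match read on the other strand):
ugt-66, chrIII:6194581-6194830, minus strand: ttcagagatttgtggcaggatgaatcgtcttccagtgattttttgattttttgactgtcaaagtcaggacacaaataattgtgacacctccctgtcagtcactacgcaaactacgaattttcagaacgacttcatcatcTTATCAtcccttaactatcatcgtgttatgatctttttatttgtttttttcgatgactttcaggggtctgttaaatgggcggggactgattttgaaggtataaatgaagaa
ugt-41, chrV:7163596-7163845, minus strand: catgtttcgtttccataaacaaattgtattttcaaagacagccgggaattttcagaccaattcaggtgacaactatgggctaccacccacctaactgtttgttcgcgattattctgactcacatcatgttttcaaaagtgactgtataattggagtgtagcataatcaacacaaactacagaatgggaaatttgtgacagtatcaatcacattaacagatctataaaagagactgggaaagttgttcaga
ugt-14, chrV:4906003-4906252, plus strand: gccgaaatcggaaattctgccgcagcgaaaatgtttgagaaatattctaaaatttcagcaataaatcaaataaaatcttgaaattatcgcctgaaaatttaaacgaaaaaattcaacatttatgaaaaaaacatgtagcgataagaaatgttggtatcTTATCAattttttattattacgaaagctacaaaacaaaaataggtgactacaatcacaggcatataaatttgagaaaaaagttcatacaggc
ugt-62, chrIII:4540624-4540873, minus strand: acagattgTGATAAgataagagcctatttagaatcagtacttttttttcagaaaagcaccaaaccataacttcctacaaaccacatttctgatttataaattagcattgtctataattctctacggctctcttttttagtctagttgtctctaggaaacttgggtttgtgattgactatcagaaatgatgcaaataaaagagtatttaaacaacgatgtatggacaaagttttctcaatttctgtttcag
The window of ugt-41 has no GATA match, whereas those of the other 3 genes have 1 each.

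Total mRNA of the family was highest in heat-stressed mutants. Summed over the 67 members, mRNA was 1789, 1856 and 1808 RPM in mut-16 mutants at 25°C, 998, 966 and 930.4 RPM in mut-16 mutants at 20°C, 1113, 1127 and 1127 RPM in wild-type animals at 25°C and 838, 870.3 and 814 RPM in wild-type animals at 20°C. The ranges of the 4 groups did not overlap. The mean in mut-16 mutants was 1.88 times as high at 25°C as at 20°C, and in wild-type animals 1.33 times. Between genotypes, the mean in mut-16 mutants was 1.62 times that of wild-type animals at 25°C and 1.15 times at 20°C. These are sums on the RPM scale, with no test over the family.

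**Figure D1:**
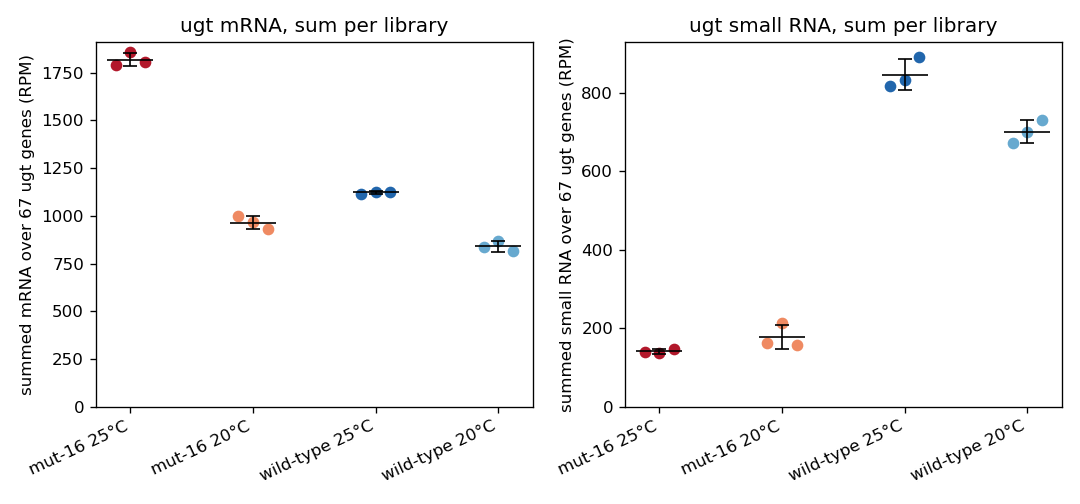
Summed mRNA (left) and small RNA (right) of the 67 ugt genes in RPM, with 1 point per library, 3 libraries per group, and the mean and SD in black. mRNA was highest in mut-16 mutants at 25°C (1817 ± 34.5 RPM) and small RNA lay between 137 and 213 RPM in all mut-16 libraries and between 671 and 890.3 RPM in all wild-type libraries.

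A few members carried much of this mRNA. In mut-16 mutants at 25°C, the 3 members with the most reads held 30.4% of the family sum and 52 members reached 1 RPM, against 41.4% and 42 members in wild-type animals at 20°C. Per kilobase of exon and averaged over all 12 libraries, ugt-22 was highest at 91.8 RPM per kb, followed by ugt-62 at 73.0, ugt-64 at 44.1, ugt-47 at 41.8 and ugt-44 at 39.1 RPM per kb. The low end is formed by 10 members that did not pass the filter on low counts in mRNA-seq (ugt-10, ugt-15, ugt-27, ugt-34, ugt-35, ugt-38, ugt-42, ugt-56, ugt-57 and ugt-67), each below 0.23 RPM on average. The other 57 were tested among 14623 genes, with the quasi-likelihood test of edgeR. P-values were adjusted over all of these genes (Benjamini-Hochberg), and a gene was called at an adjusted p under 0.05. Fitted fold changes use TMM scaling, which sets libraries against each other by the bulk of genes, whereas RPM uses total counts, so the ratio of 2 RPM means can be larger or smaller than the fitted fold change. Because the filter asks for reads in enough libraries, a member that passed through 1 high group alone had to differ, and the counts below are read against all genes that passed the same filter.

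The first question was how these genes differed between 25°C and 20°C within each genotype. Heat here stands for the higher temperature together with its earlier harvest. In mut-16 mutants, 48 of 57 tested members had higher mRNA at 25°C than at 20°C, 2 had lower mRNA (ugt-1 and ugt-62) and 7 were not called, while over all tested genes 40.2% were called higher and 32.3% lower. The median log2 fold change was 0.96 over the members and 0.15 over all genes. In wild-type animals, 37 members were higher at 25°C, 3 were lower (ugt-1, ugt-2 and ugt-62) and 17 were not called, with 22.6% of all genes called higher and 9.78% lower, and the medians were 0.56 and 0.09. In the mutants the libraries of the 2 temperatures did not overlap in RPM for any of the 48, and in wild-type animals they did not for 35 of the 37. Overlap was judged without TMM scaling, and the share of all tested genes without overlap was not counted. Scaling by total counts in place of TMM moved the all-gene median to 0.46 in mut-16 mutants and the share of higher among called genes to 80.9%, against 55.4% under TMM. Under that scaling 50 members were higher and 0 lower in mut-16 mutants, and the member median was 1.27, so the lower calls of ugt-1 and ugt-62 in the mutants depend on the scaling. In the same 2 comparisons, 10 of 10 germline markers were lower and 6 of 7 hypodermis, 5 of 7 neuron and 4 of 7 muscle markers higher in mut-16 mutants. There, 4 of 12 intestine markers were higher and 6 lower, and 8 of 33 tested sperm markers were higher and 3 lower. In wild-type animals 0 germline markers were lower and 2 higher, and 4 of 7 hypodermis, 3 of 7 neuron, 1 of 7 muscle and 30 of 33 sperm markers were higher. Of the 12 intestine markers, 1 was higher and 3 lower in wild-type animals.

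ugt-66 (C23G10.6, chromosome III, 6192116 to 6194580) showed the largest heat response in both genotypes. Its mRNA was 9.98, 12.1 and 12.1 RPM in mut-16 mutants at 25°C, against 0.431, 0.374 and 0.154 RPM in mut-16 mutants at 20°C (log2 fold change 4.88 ± 0.66 (SE), edgeR adjusted p = 1.97e-10). It was 2.91, 2.99 and 3.29 RPM in wild-type animals at 25°C, against 0.0501, 0.0539 and 0.0413 RPM in wild-type animals at 20°C. The wild-type libraries at 20°C held 1 count each, so the ratio of the wild-type groups, 64.2 (95% counting interval 21.7 to 314), rests on 236 counts against 3. ugt-8 (H23N18.3), of the 8-gene group on chromosome V, followed the same pattern. It had 5.28, 7.08 and 7.35 RPM in mut-16 mutants at 25°C, against 0.670, 0.795 and 0.578 RPM in mut-16 mutants at 20°C (log2 fold change 2.98 ± 0.46 (SE), edgeR adjusted p = 1.81e-08), and 1.11, 1.37 and 1.53 RPM in wild-type animals at 25°C, against 0.0501, 0.0539 and 0.0826 RPM in wild-type animals at 20°C, where 104 counts against 4 gave a ratio of 21.2 (95% counting interval 8.04 to 79.3). These intervals cover counting error only. For both genes the 4 groups stood apart with both 25°C groups above both 20°C groups and the mutants above wild-type animals at each temperature, as the plot of mRNA by library shows.

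**Figure D2:**
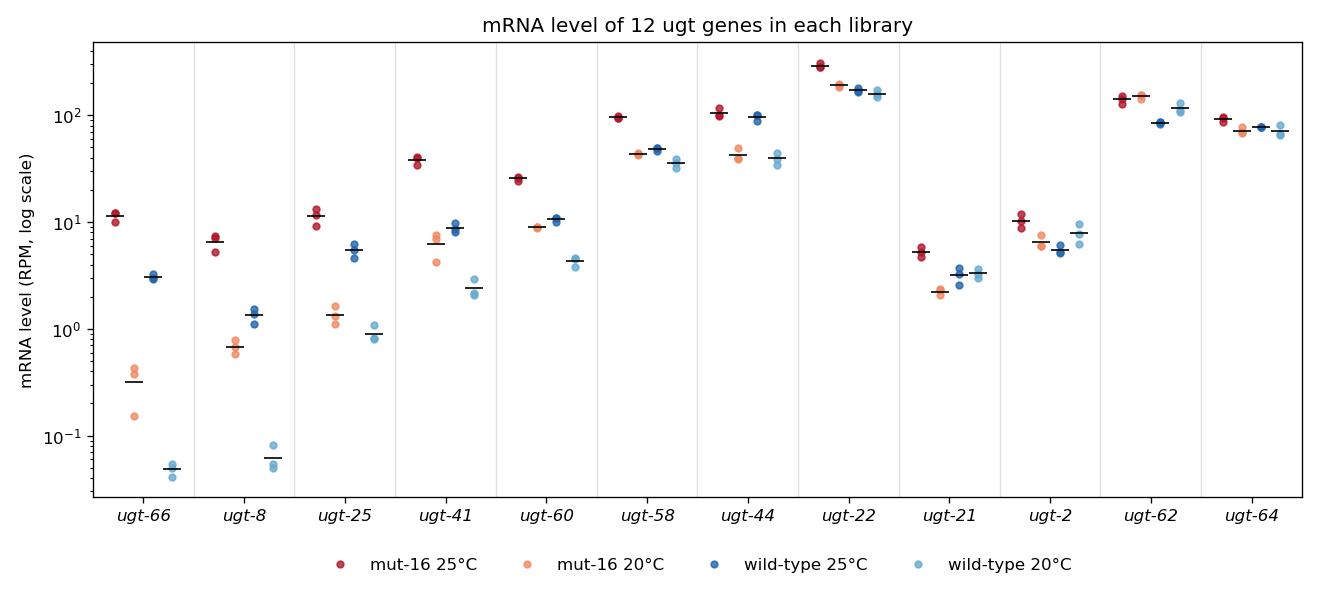
mRNA of 12 ugt genes in RPM on a log axis, with 1 point per library, colours for the 4 groups (3 libraries each) and a black bar at each group mean. ugt-66, ugt-8, ugt-25, ugt-41 and ugt-60 were higher at 25°C in both genotypes, ugt-62 and ugt-2 were lower at 25°C in wild-type animals, and ugt-64 lay between 66.1 and 95.9 RPM in all libraries.

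The other members with strong responses were mostly at low levels. ugt-25 (C10H11.3, chromosome I) had 9.20, 13.1 and 11.6 RPM in mut-16 mutants at 25°C, against 1.63, 1.12 and 1.31 RPM in mut-16 mutants at 20°C, and 4.61, 5.44 and 6.24 RPM in wild-type animals at 25°C, against 0.802, 1.08 and 0.826 RPM in wild-type animals at 20°C. Its log2 fold changes with heat were 2.76 ± 0.42 in mut-16 mutants and 2.58 ± 0.43 in wild-type animals (SE, edgeR adjusted p = 1.90e-08 and 2.20e-07). The 4 groups of ugt-25 did not overlap. For ugt-40 the level was 2.46, 2.42 and 2.54 RPM in mut-16 mutants at 25°C, against 0.287, 0.0935 and 0.154 RPM in mut-16 mutants at 20°C (log2 fold change 3.47 ± 0.66 (SE), edgeR adjusted p = 2.68e-06). The wild-type libraries of ugt-40 held 38 counts at 25°C against 4 at 20°C, a ratio of 7.75 (95% counting interval 2.79 to 29.9). ugt-14 had 0.907, 1.26 and 1.40 RPM in mut-16 mutants at 25°C, against 0.191, 0.140 and 0.116 RPM in mut-16 mutants at 20°C (log2 fold change 2.72 ± 0.56 (SE), edgeR adjusted p = 1.27e-05), and 39 counts against 2 in the wild-type groups. Both ugt-40 and ugt-14 passed the filter on low counts only with the libraries of mut-16 mutants at 25°C, where they were highest. Their calls against that group were partly set by the filter and are given as description. In wild-type animals ugt-3 and ugt-32 were also among the 5 strongest, with 1.25, 1.33 and 1.46 RPM in wild-type animals at 25°C, against 0.0501, 0.162 and 0.372 RPM in wild-type animals at 20°C for ugt-3 (log2 fold change 2.66 ± 0.55 (SE), edgeR adjusted p = 4.04e-05) and 2.49, 1.79 and 2.02 RPM in wild-type animals at 25°C, against 0.200, 0.377 and 0.495 RPM in wild-type animals at 20°C for ugt-32 (log2 fold change 2.48 ± 0.47 (SE), edgeR adjusted p = 6.77e-06).

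The most abundant members split in their heat response. ugt-22 was 308, 285 and 281 RPM in mut-16 mutants at 25°C, 197, 193 and 184 RPM in mut-16 mutants at 20°C, 182, 170.5 and 166 RPM in wild-type animals at 25°C and 147, 174 and 157 RPM in wild-type animals at 20°C. It rose with heat in mut-16 mutants (log2 fold change 0.30 ± 0.10 (SE), edgeR adjusted p = 0.00786), while in wild-type animals the ranges overlapped and the log2 fold change was 0.10 ± 0.09. ugt-44 rose in both genotypes, without overlap of the temperatures, with 118, 101 and 98.8 RPM in mut-16 mutants at 25°C, 49.3, 39.7 and 39.2 RPM in mut-16 mutants at 20°C, 88.3, 100.0 and 102 RPM in wild-type animals at 25°C and 44.5, 39.3 and 34.5 RPM in wild-type animals at 20°C. Its log2 fold changes were 0.99 ± 0.19 in mut-16 mutants and 1.28 ± 0.22 in wild-type animals. ugt-47 averaged 119.7 ± 2.63 RPM in mut-16 mutants at 25°C, 48.4 ± 5.21 RPM in mut-16 mutants at 20°C, 65.2 ± 0.769 RPM in wild-type animals at 25°C and 43.8 ± 3.73 RPM in wild-type animals at 20°C (SD, n = 3 each), with log2 fold changes of 0.99 ± 0.18 and 0.56 ± 0.13 with heat in mut-16 mutants and wild-type animals. ugt-62 was lower at 25°C than at 20°C in wild-type animals, with 87.1, 87.5 and 82.1 RPM in wild-type animals at 25°C, against 131, 108 and 111 RPM in wild-type animals at 20°C (log2 fold change -0.47 ± 0.11 (SE), edgeR adjusted p = 0.000541). ugt-62 had 129, 151 and 143 RPM in mut-16 mutants at 25°C, against 154, 154 and 143 RPM in mut-16 mutants at 20°C, ranges that overlapped although the fit called it lower (log2 fold change -0.41 ± 0.11 (SE), edgeR adjusted p = 0.000492). ugt-64 was among the 3 members called in none of the 4 pairwise mRNA comparisons, with ugt-24 and ugt-31, and had 85.9, 95.9 and 93.7 RPM in mut-16 mutants at 25°C, 69.5, 69.0 and 76.9 RPM in mut-16 mutants at 20°C, 77.3, 78.1 and 77.1 RPM in wild-type animals at 25°C and 67.2, 80.8 and 66.1 RPM in wild-type animals at 20°C. The share of all tested genes called in none of the 4 was not counted.

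The pair of neighbours ugt-1 and ugt-2 (chromosome V, 10395663 to 10401307) had lower mRNA with heat in wild-type animals, where ugt-62 was the other member called lower. ugt-1 had 4.29, 5.02 and 5.01 RPM in wild-type animals at 25°C, against 8.47, 8.24 and 10.7 RPM in wild-type animals at 20°C (log2 fold change -0.96 ± 0.20 (SE), edgeR adjusted p = 2.79e-05). ugt-2 had 5.17, 6.08 and 5.23 RPM in wild-type animals at 25°C, against 9.62, 6.30 and 7.76 RPM in wild-type animals at 20°C (log2 fold change -0.54 ± 0.19 (SE), edgeR adjusted p = 0.0169). In mut-16 mutants ugt-2 was called in the other direction, with 8.75, 12.0 and 10.2 RPM in mut-16 mutants at 25°C, against 7.61, 5.98 and 5.93 RPM in mut-16 mutants at 20°C (log2 fold change 0.37 ± 0.17 (SE), edgeR adjusted p = 0.0434), and it was the 1 member with opposite heat calls. The wild-type call of ugt-2 was lost in 3 of the fits that each left out 1 library (edgeR adjusted p = 0.0910 without wild-type 20°C replicate 1).

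The heat responses of the genotypes were then compared with each other. The difference of the log2 fold changes, mut-16 minus wild-type, was called higher for 14 members and lower for 1, ugt-65, and was not called for 42. Over all genes 9.7% were higher and 21.4% lower, and the median difference was 0.17 over the members and -0.10 over all genes. Total-count scaling moved the all-gene median to 0.19 and the higher share of calls to 78.0%, against 31.2% under TMM, with 24 members higher and 0 lower. ugt-37 had the largest difference, 2.41 ± 0.58 (SE, edgeR adjusted p = 0.00119), at levels under 1 RPM: 0.648, 0.976 and 0.819 RPM in mut-16 mutants at 25°C, 0.191, 0.234 and 0.231 RPM in mut-16 mutants at 20°C, 0.323, 0.316 and 0.374 RPM in wild-type animals at 25°C and 0.601, 0.539 and 0.619 RPM in wild-type animals at 20°C. ugt-55 followed with a difference of 1.52 ± 0.53 (edgeR adjusted p = 0.0199). It had 1.56, 1.92 and 1.58 RPM in mut-16 mutants at 25°C, 0.479, 0.467 and 0.385 RPM in mut-16 mutants at 20°C, 0.369, 0.843 and 0.561 RPM in wild-type animals at 25°C and 0.351, 0.646 and 0.661 RPM in wild-type animals at 20°C, so the libraries of heat-stressed mutants lay above all others. ugt-21 had 4.73, 5.79 and 5.26 RPM in mut-16 mutants at 25°C, 2.35, 2.06 and 2.31 RPM in mut-16 mutants at 20°C, 3.74, 3.23 and 2.58 RPM in wild-type animals at 25°C and 3.66, 3.28 and 3.01 RPM in wild-type animals at 20°C, a difference of 1.01 ± 0.29 (edgeR adjusted p = 0.00521). ugt-58, ugt-46, ugt-47, ugt-17 and ugt-49 differed by 0.36 to 0.46, and ugt-39, ugt-19, ugt-30, ugt-1, ugt-2 and ugt-11 by 0.66 to 1.09. The number of members with a higher difference fell to 8 without wild-type 20°C replicate 2, mut-16 20°C replicate 2 or wild-type 25°C replicate 2, and to 9 without wild-type 25°C replicate 1 or 3. Among the higher calls, those of ugt-11, ugt-46, ugt-49, ugt-17 and ugt-47 were each lost in several fits that left out 1 library. Those of ugt-30, ugt-55 and ugt-58 were lost in fewer. The single lower call, ugt-65, was lost under DESeq2, total-count scaling and no filter on low counts. It was also lost without any 1 of the mut-16 25°C libraries and in other fits that left out 1 library.

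**Figure D3:**
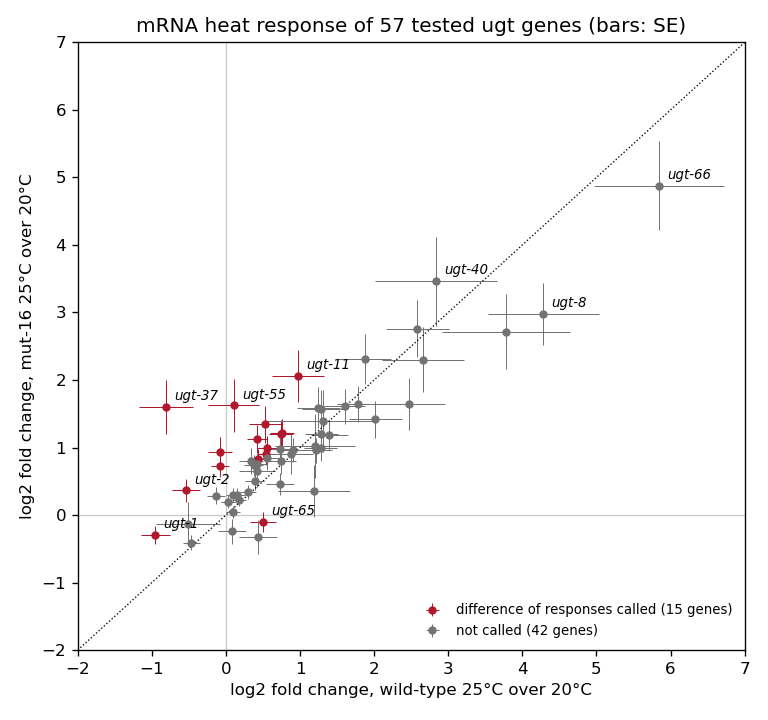
log2 fold change of mRNA with heat (25°C over 20°C) in mut-16 mutants (vertical) against wild-type animals (horizontal) for 57 ugt genes, with SE bars, the line of equal change dotted and genes whose heat responses differed in red. Most genes lie in the upper right quadrant, ugt-66 lies farthest out, and 14 of the 15 red genes lie above the line.

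Loss of mut-16 was compared with wild-type at each temperature. At 25°C, 37 members had higher mRNA in mut-16 mutants, 0 had lower mRNA and 20 were not called, with 41.1% of all genes called higher and 32.6% lower; the median log2 fold change was 0.60 over the members and 0.16 over all genes. At an unadjusted p under 0.05, 1 member was lower, and DESeq2 called 0 lower, while 3 were called lower without wild-type 20°C replicate 1 or 2 and 1 without wild-type 20°C replicate 3, mut-16 20°C replicate 1 or wild-type 25°C replicate 1 or 2. The libraries did not overlap for any of the 37. At 20°C, 24 members were higher, 3 were lower (ugt-17, ugt-21 and ugt-37) and 30 were not called, with 25.9% of all genes called higher and 11.2% lower and medians of 0.35 and 0.11. All 24 that were higher at 20°C were also higher at 25°C, and for 19 of them the libraries at 20°C did not overlap. The shares of all tested genes without overlap, or higher at both temperatures, were not counted. Total-count scaling gave 44 members higher at 25°C (all-gene median 0.37, higher share of calls 55.8% under TMM and 73.0% under total counts) and 16 higher at 20°C (median 0.03, 69.8% and 56.6%). The 24 at 20°C fell to 15 without mut-16 20°C replicate 1. In these comparisons 7 of 7 hypodermis markers and 33 of 33 tested sperm markers were higher in the mutants at both temperatures, and germline markers were lower in 10 of 10 at 25°C and in 1 of 10 at 20°C. Muscle markers were higher in 6 of 7 at 25°C and 2 of 7 at 20°C, and neuron markers in 5 of 7 and 2 of 7, with 1 neuron marker lower at 25°C. Of 12 intestine markers, 5 were higher and 3 lower at 25°C, and 2 were higher and 0 lower at 20°C.

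Of the 5 members named for the largest rise with mut-16 loss at 25°C, 4 (ugt-40, ugt-8, ugt-11 and ugt-41) lie in the groups of 8 and of 6 neighbours on chromosome V. ugt-41 (F10D2.11) had 34.1, 40.4 and 40.2 RPM in mut-16 mutants at 25°C, 7.51, 7.01 and 4.24 RPM in mut-16 mutants at 20°C, 8.63, 8.08 and 9.72 RPM in wild-type animals at 25°C and 2.15, 2.96 and 2.06 RPM in wild-type animals at 20°C. Its log2 fold changes with mut-16 loss were 1.91 ± 0.33 at 25°C and 1.47 ± 0.32 at 20°C (SE, edgeR adjusted p = 1.63e-07 and 5.42e-05), and its groups did not overlap at either temperature. ugt-13 had 17.9, 20.0 and 19.1 RPM in mut-16 mutants at 25°C, 5.60, 4.72 and 4.70 RPM in mut-16 mutants at 20°C, 5.54, 6.50 and 6.84 RPM in wild-type animals at 25°C and 2.30, 2.10 and 1.78 RPM in wild-type animals at 20°C, with log2 fold changes of 1.38 ± 0.23 and 1.37 ± 0.26 at the 2 temperatures. ugt-11 had 4.60, 5.85 and 5.56 RPM in mut-16 mutants at 25°C, 1.58, 0.841 and 0.732 RPM in mut-16 mutants at 20°C, 0.969, 1.23 and 1.12 RPM in wild-type animals at 25°C and 0.501, 0.516 and 0.619 RPM in wild-type animals at 20°C. It rose with mut-16 loss at 25°C (log2 fold change 2.06 ± 0.38 (SE), edgeR adjusted p = 7.34e-07), and its call at 20°C (edgeR adjusted p = 0.0239) was lost without mut-16 20°C replicate 1 (edgeR adjusted p = 0.191) or without wild-type 20°C replicate 1 or 2. ugt-9 rose by 0.56 ± 0.18 at 25°C and 1.16 ± 0.29 at 20°C on the log2 scale. ugt-40 and ugt-8 led at 25°C, with log2 fold changes of 2.11 ± 0.46 and 2.09 ± 0.35. The rise of ugt-40 is given as description, because it passed the filter on low counts only with the libraries of mut-16 mutants at 25°C. At 20°C, ugt-8 had 46 counts in mut-16 mutants against 4 in wild-type animals, a ratio of 10.6 (95% counting interval 3.86 to 40.4).

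Away from these groups, ugt-60 (C07A9.6, chromosome III) had 26.6, 24.4 and 26.0 RPM in mut-16 mutants at 25°C, 9.00, 8.79 and 9.01 RPM in mut-16 mutants at 20°C, 10.1, 10.8 and 11.0 RPM in wild-type animals at 25°C and 3.76, 4.63 and 4.50 RPM in wild-type animals at 20°C. The groups differed without overlap in each comparison, with log2 fold changes of 1.21 ± 0.20 and 1.29 ± 0.22 with heat in mut-16 mutants and wild-type animals, and 1.06 ± 0.19 and 1.14 ± 0.21 with mut-16 loss at 25°C and 20°C. The 18 members called higher in all 4 pairwise comparisons were ugt-4, ugt-7, ugt-8, ugt-9, ugt-11, ugt-12, ugt-13, ugt-14, ugt-25, ugt-30, ugt-41, ugt-48, ugt-49, ugt-54, ugt-58, ugt-60, ugt-63 and ugt-66. The share of all tested genes called higher in all 4 was not counted, and those comparisons share libraries and are not independent of one another. Of these members, ugt-14 passed the filter on low counts only with the libraries of mut-16 mutants at 25°C, so its calls against that group were partly set by the filter. Opposite to the 18 members at 20°C were ugt-17, with 26.7, 25.1 and 25.8 RPM in mut-16 mutants at 20°C, against 33.6, 40.5 and 30.6 RPM in wild-type animals at 20°C (log2 fold change -0.34 ± 0.12 (SE), edgeR adjusted p = 0.0157), and ugt-21, with 2.35, 2.06 and 2.31 RPM in mut-16 mutants at 20°C, against 3.66, 3.28 and 3.01 RPM in wild-type animals at 20°C (log2 fold change -0.47 ± 0.19 (SE), edgeR adjusted p = 0.0407). The call of ugt-17 was lost without wild-type or mut-16 20°C replicate 2, and that of ugt-21 without any 1 of 6 libraries.

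The counts for groups of neighbours are set against the shares of all tested genes called higher, which were 40.2% with heat in mut-16 mutants, 22.6% with heat in wild-type animals, 41.1% with mut-16 loss at 25°C and 25.9% at 20°C. In the largest group of 8 genes, 6 were tested in mRNA-seq, and all 6 were called higher with heat in each genotype and higher with mut-16 loss at each temperature, with log2 fold changes of 0.74 to 2.98 for heat in mut-16 mutants and 0.56 to 2.09 for mut-16 loss at 25°C. In the group of 6 genes around ugt-41, 5 of 5 tested rose with heat in mut-16 mutants and 3 of 5 in wild-type animals, and 5 of 5 were higher with mut-16 loss at 25°C and 2 of 5 at 20°C, where ugt-37 was lower. In this group ugt-40 and ugt-36, and in the group of 8 ugt-14, passed the filter on low counts only with the libraries of mut-16 mutants at 25°C. Their calls against that group were partly set by the filter, and the counts that hold them are given as description. In the group of 7 around ugt-5, 5 of 6 tested rose with heat in each genotype, and 2 of 6 were higher with mut-16 loss at each temperature. Over all members with a neighbour, 27 of 29 tested rose with heat in mut-16 mutants (median 1.20), and over members alone 21 of 28 (median 0.78).

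Other genes of the detoxification path were counted from lists chosen by gene name. With heat in mut-16 mutants, where 40.2% of all tested genes were higher and 32.3% lower, 31 of 52 tested cytochrome P450 genes were higher and 6 lower (median 0.64), 25 of 33 glutathione S-transferase genes were higher and 1 lower (median 0.88), and 10 of 21 ABC transporter genes of the pgp and mrp families were higher and 4 lower (median 0.14). With heat in wild-type animals, 14 of 52, 14 of 33 and 11 of 21 were higher in these lists, against 22.6% of all genes, with medians of 0.25, 0.53 and 0.38. Glutathione S-transferases, which like UDP-glucuronosyltransferases belong to phase II, were higher with mut-16 loss for 24 of 33 at 25°C and 13 of 33 at 20°C, against 41.1% and 25.9% of all genes. Of these 33, 4 were lower at 25°C and 6 at 20°C, against 32.6% and 11.2% of all genes. Cytochrome P450 genes were split, with 20 of 52 higher and 14 lower at 25°C, and 10 higher and 14 lower at 20°C (median -0.06). Of 21 ABC transporter genes, 12 were higher and 4 lower at 25°C, and 12 higher and 0 lower at 20°C. Of 12 genes for sugar donor supply and transcriptional control, 5 were higher and 6 lower with heat in mut-16 mutants. sqv-4, which encodes the UDP-glucose dehydrogenase that makes UDP-glucuronic acid, was lower (log2 fold change -0.84 ± 0.14, edgeR adjusted p = 1.66e-07), as was skn-1, a regulator of phase II genes (-0.49 ± 0.12, edgeR adjusted p = 8.96e-05), and elt-2, the intestinal GATA factor, was higher (0.27 ± 0.12, edgeR adjusted p = 0.0290). Of the 12 intestinal markers, elt-2 among them, 4 were higher and 6 lower in that comparison (median -0.27). Small RNA was lower with mut-16 loss at 25°C for 39 of 59 tested cytochrome P450 genes, 18 of 21 glutathione S-transferase genes and 15 of 22 ABC transporter genes, against 47.1% of all genes. In wild-type animals the heat mRNA changes of skn-1 (0.09 ± 0.08) and elt-2 (-0.08 ± 0.11) were not called.

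In small RNA-seq the mutant libraries were all low. Summed over the 67 members they were 139, 137 and 149 RPM in mut-16 mutants at 25°C and 164, 213 and 158 RPM in mut-16 mutants at 20°C, against 817, 831 and 890.3 RPM in wild-type animals at 25°C and 671, 701 and 731 RPM in wild-type animals at 20°C. The wild-type mean was 5.98 times the mutant mean at 25°C and 3.93 times at 20°C, and no mutant library reached the lowest wild-type library. In the small RNA counts 61 members were tested among 16025 genes, and ugt-3, ugt-7, ugt-9, ugt-11, ugt-63 and ugt-67 did not pass the filter on low counts. As in mRNA-seq, a member that passed the filter through 1 high group alone had to differ. With mut-16 loss at 25°C, 41 members had lower small RNA, 3 higher and 17 were not called, against 47.1% of all genes lower and 31.3% higher, with medians of -1.50 over the members and -0.58 over all genes. At 20°C, 41 were lower, 2 higher and 18 not called, against 46.8% of all genes lower and 33.6% higher, with medians of -1.92 and -0.45. Lower at both temperatures were 36 members, and the share of all tested genes lower at both was not counted. Since values are shares of a library, a fall of some genes raises the share of others, and the higher calls are relative to each library.

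1 gene, ugt-31, held much of the wild-type small RNA. Per kilobase of exon it was highest in wild-type animals at 20°C, with 126.5 RPM per kb, followed by ugt-5 at 51.0, ugt-64 at 25.9, ugt-35 at 19.4 and ugt-45 at 15.8 RPM per kb. ugt-31 (Y39G10AR.6, chromosome I, 2333338 to 2338693) had 2.52, 1.53 and 1.70 RPM in mut-16 mutants at 25°C, 3.50, 4.97 and 4.07 RPM in mut-16 mutants at 20°C, 364, 388 and 414 RPM in wild-type animals at 25°C and 203, 203 and 218 RPM in wild-type animals at 20°C. All mutant libraries held under 5 RPM. The gene accounted for 46.0% of the family's small RNA reads in wild-type animals at 25°C and 29.7% at 20°C. With mut-16 loss it fell by 7.60 on the log2 scale at 25°C and by 5.56 at 20°C (SE 0.84 and 0.63, edgeR adjusted p = 1.91e-16 and 7.37e-16). Its mRNA was not called in either comparison, with log2 fold changes of -0.47 ± 0.25 at 25°C and 0.28 ± 0.26 at 20°C. Heat moved its small RNA in opposite directions in the genotypes, lower in mut-16 mutants (log2 fold change -1.05 ± 0.23 (SE), edgeR adjusted p = 0.000175) and higher in wild-type animals (log2 fold change 0.99 ± 0.16 (SE), edgeR adjusted p = 8.30e-08), a difference of -2.04 ± 0.35 (edgeR adjusted p = 2.20e-06).

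**Figure D4:**
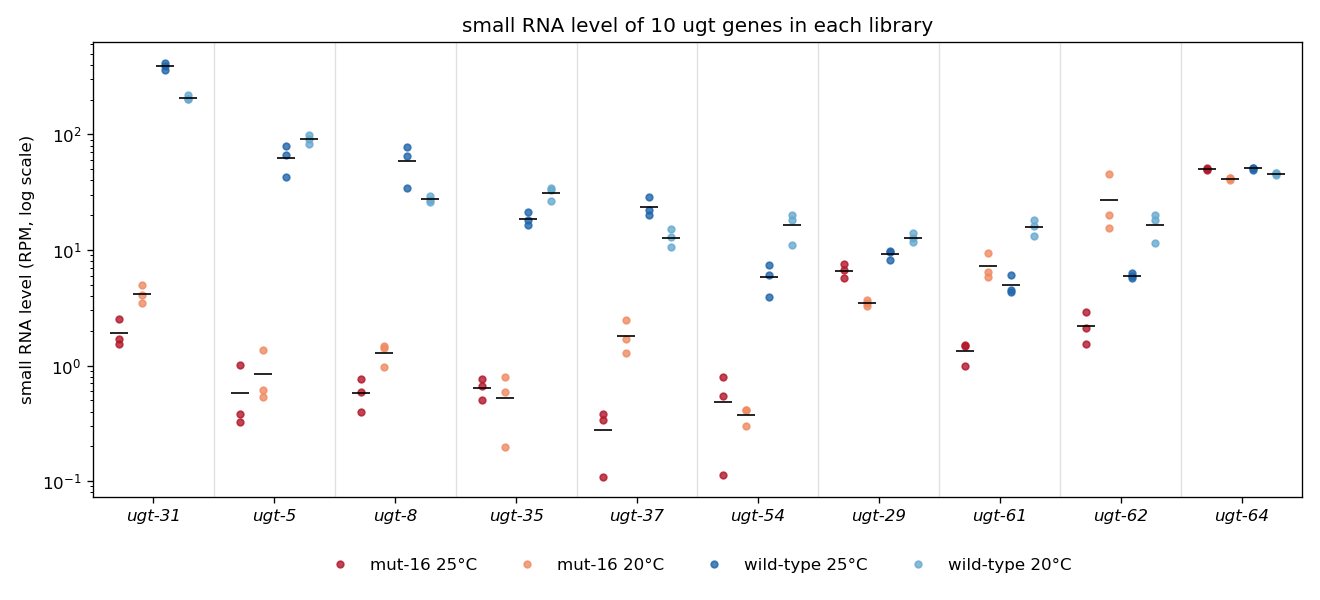
Small RNA of 10 ugt genes in RPM on a log axis, with 1 point per library, colours for the 4 groups (3 libraries each) and a black bar at each group mean. The 6 genes on the left sit far lower in both mut-16 groups, ugt-62 and ugt-61 are lower at 25°C in both genotypes, and ugt-64 lay between 40.2 and 51.7 RPM in all libraries.

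Several other members lost most of their small RNA in the mutants. ugt-5 (ZC455.6) had 0.381, 0.328 and 1.02 RPM in mut-16 mutants at 25°C, 0.617, 1.37 and 0.537 RPM in mut-16 mutants at 20°C, 78.9, 66.7 and 43.2 RPM in wild-type animals at 25°C and 82.2, 99.6 and 90.4 RPM in wild-type animals at 20°C, a log2 fold change with mut-16 loss of -6.71 ± 1.14 at 25°C and -6.71 ± 1.11 at 20°C (edgeR adjusted p = 2.78e-08 and 8.41e-09). Its mRNA, at 15.8 ± 1.70 RPM, 6.50 ± 0.784 RPM, 13.8 ± 0.514 RPM and 8.23 ± 0.907 RPM (SD, n = 3 each) in the same order of groups, was not called in either comparison. ugt-8 had 0.399, 0.761 and 0.591 RPM in mut-16 mutants at 25°C, 1.43, 1.48 and 0.971 RPM in mut-16 mutants at 20°C, 77.6, 65.1 and 34.2 RPM in wild-type animals at 25°C and 26.3, 29.4 and 27.3 RPM in wild-type animals at 20°C, and fell by 6.62 on the log2 scale at 25°C and by 4.26 at 20°C, while its mRNA rose. The lowest wild-type value at 25°C was in replicate 3, the library with the fewest counts. ugt-45 had 4.43, 4.92 and 21.6 RPM in mut-16 mutants at 25°C, 4.35, 2.68 and 3.47 RPM in mut-16 mutants at 20°C, 31.7, 31.3 and 28.8 RPM in wild-type animals at 25°C and 21.3, 19.7 and 38.1 RPM in wild-type animals at 20°C, with log2 fold changes of -1.50 ± 0.65 and -2.76 ± 0.84 with mut-16 loss at 25°C and 20°C. Replicate 3 of the mut-16 mutants at 25°C stood apart from the other two, and without it the log2 fold change of ugt-45 at 25°C was -2.64 (edgeR adjusted p = 7.27e-06). The call at 25°C was lost without mut-16 25°C replicate 1 or 2 or without any 1 of the wild-type 25°C libraries (edgeR adjusted p = 0.0555 to 0.0920). ugt-35 had 0.506, 0.766 and 0.666 RPM in mut-16 mutants at 25°C, 0.589, 0.795 and 0.199 RPM in mut-16 mutants at 20°C, 18.3, 16.5 and 21.2 RPM in wild-type animals at 25°C and 26.3, 33.3 and 34.1 RPM in wild-type animals at 20°C, log2 fold changes of -4.73 ± 0.72 and -5.70 ± 0.81, and too few mRNA counts to be tested. ugt-54 fell at 20°C with 0.415, 0.411 and 0.298 RPM in mut-16 mutants at 20°C, against 11.0, 18.2 and 20.3 RPM in wild-type animals at 20°C (log2 fold change -5.34 ± 0.88 (SE), edgeR adjusted p = 8.26e-09). For ugt-37 at 25°C, 7 counts in mut-16 mutants stood against 782 in wild-type animals, so the wild-type level was 83.0 (95% counting interval 40.1 to 207) times the mutant level. For ugt-38 at 20°C, 2 counts stood against 55, a wild-type to mutant ratio of 33.8 (95% counting interval 8.93 to 286). This ratio is given as description, because ugt-38 passed the filter on low counts only with the libraries of wild-type animals at 20°C, where it was highest.

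Some members kept or gained small RNA in the mutants. ugt-64 (C07G3.9), among the 5 highest members per kilobase in both assays, had 49.2, 50.8 and 49.8 RPM in mut-16 mutants at 25°C, 41.7, 40.2 and 41.8 RPM in mut-16 mutants at 20°C, 51.0, 49.7 and 51.7 RPM in wild-type animals at 25°C and 46.0, 44.7 and 46.8 RPM in wild-type animals at 20°C, with log2 fold changes of 0.04 ± 0.08 at 25°C and -0.05 ± 0.08 at 20°C with mut-16 loss. Its exons overlap C07G3.10 on the opposite strand by 72 bases. ugt-51 was higher in mutants at 25°C, with 5.02, 4.30 and 3.88 RPM in mut-16 mutants at 25°C, against 1.73, 2.50 and 2.89 RPM in wild-type animals at 25°C (log2 fold change 0.99 ± 0.31 (SE), edgeR adjusted p = 0.00243). ugt-19 (edgeR adjusted p = 0.0443) and ugt-23 (edgeR adjusted p = 0.0244) were the other higher calls at 25°C, and without mut-16 25°C replicate 2 a single higher call was left. At 20°C ugt-42 was higher, with 2.27, 2.75 and 1.97 RPM in mut-16 mutants at 20°C, against 1.10, 0.976 and 1.70 RPM in wild-type animals at 20°C (log2 fold change 1.02 ± 0.41 (SE), edgeR adjusted p = 0.0163), and ugt-62 was called higher with overlapping ranges (log2 fold change 0.78 ± 0.37 (SE), edgeR adjusted p = 0.044), its mutant libraries ranging from 15.6 to 45.2 RPM. DESeq2 called 6 members higher at 20°C. No higher call at 20°C was left without wild-type 20°C replicate 1 or 2.

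Heat changed the small RNA of fewer members, in both directions. In mut-16 mutants 4 were higher at 25°C, 8 lower and 49 not called, against 8.29% of all genes higher and 17.3% lower, with medians of 0.07 over the members and -0.07 over all genes. In wild-type animals 10 were higher, 9 lower and 42 not called, against 20.2% and 17% of all genes, with medians of -0.07 and 0.04. The wild-type count of 10 fell to 4 without wild-type 20°C replicate 2 and to 6 without wild-type 20°C replicate 1 or 25°C replicate 1; total-count scaling moved the all-gene median in wild-type animals to -0.05 and the higher share of calls to 41.4%, against 54.3% under TMM, with 7 members higher and 10 lower. ugt-62 showed the strongest fall in the mutants, with 2.91, 1.55 and 2.13 RPM in mut-16 mutants at 25°C, against 20.1, 45.2 and 15.6 RPM in mut-16 mutants at 20°C (log2 fold change -3.54 ± 0.74 (SE), edgeR adjusted p = 6.18e-05), and it fell in wild-type animals too, with 5.95, 6.33 and 5.69 RPM in wild-type animals at 25°C, against 11.4, 18.2 and 19.9 RPM in wild-type animals at 20°C (log2 fold change -1.35 ± 0.45 (SE), edgeR adjusted p = 0.0108). ugt-61 and ugt-26 were likewise lower in both genotypes, with log2 fold changes of -2.37 ± 0.46 and -2.39 ± 0.47 in mut-16 mutants and -1.60 ± 0.34 and -1.06 ± 0.32 in wild-type animals. Higher in both were ugt-14 and ugt-64. ugt-14 had 3.80, 2.63 and 2.60 RPM in mut-16 mutants at 25°C, against 1.28, 1.60 and 0.695 RPM in mut-16 mutants at 20°C (log2 fold change 1.37 ± 0.40 (SE), edgeR adjusted p = 0.00473), and 7.47, 5.29 and 5.67 RPM in wild-type animals at 25°C, against 3.08, 3.95 and 3.14 RPM in wild-type animals at 20°C (log2 fold change 0.97 ± 0.32 (SE), edgeR adjusted p = 0.0107). ugt-8, ugt-13 and ugt-32 were higher at 25°C in wild-type animals (log2 fold changes 1.23 ± 0.35, 1.09 ± 0.37 and 1.58 ± 0.52), and ugt-54 and ugt-40 were lower (-1.47 ± 0.39 and -0.83 ± 0.28). ugt-32 passed the filter on low counts only with the libraries of wild-type animals at 25°C, so its higher call was partly set by the filter. The wild-type call of ugt-14 was lost without wild-type 20°C replicate 1 or 3 or 25°C replicate 1. Those of ugt-13, ugt-32 and ugt-40 were lost without wild-type 20°C replicate 2, and that of ugt-62 without wild-type 25°C replicate 3.

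The small RNA heat responses of the genotypes differed for 9 members, 3 higher in mut-16 minus wild-type and 6 lower, with 52 not called, against 5.7% and 12.6% of all genes and medians of 0.08 and -0.14. The largest differences belonged to members with few counts in the mutants. ugt-37 had 0.379, 0.109 and 0.340 RPM in mut-16 mutants at 25°C, 1.28, 2.48 and 1.69 RPM in mut-16 mutants at 20°C, 22.3, 20.2 and 28.6 RPM in wild-type animals at 25°C and 15.1, 12.9 and 10.6 RPM in wild-type animals at 20°C, a difference of -3.55 ± 0.75 (edgeR adjusted p = 0.000144), and it fell with heat in mut-16 mutants and rose in wild-type animals. ugt-29 had 5.69, 7.49 and 6.70 RPM in mut-16 mutants at 25°C, 3.27, 3.48 and 3.68 RPM in mut-16 mutants at 20°C, 9.54, 9.81 and 8.13 RPM in wild-type animals at 25°C and 12.6, 13.9 and 11.6 RPM in wild-type animals at 20°C, a difference of 1.34 ± 0.35 (edgeR adjusted p = 0.00252), with a rise in mut-16 mutants alone among its heat calls. The lower calls numbered 3 in fits without wild-type 20°C replicate 1, 2 or 3 or without wild-type 25°C replicate 2, and the higher calls 7 without wild-type 25°C replicate 3 and 1 without mut-16 25°C replicate 2.

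The question whether members that lose small RNA gain mRNA was put to both assays for mut-16 loss. Of the 41 members with lower small RNA at 25°C, 24 had higher mRNA, 0 lower, 13 were not called in mRNA and 4 were not tested. Of the 41 at 20°C, 14 had higher mRNA, 3 lower, 19 were not called and 5 were not tested. Of the 17 members whose small RNA was not called at 25°C, 8 had higher mRNA, among them ugt-66, ugt-25 and ugt-30, 4 were not called in mRNA and 5 were not tested. Among members tested in mRNA, higher calls thus numbered 24 of 37 with lower small RNA and 8 of 12 with small RNA not called, against 37 of all 57 members and 41.1% of all genes. Over the 52 members tested in both assays, the log2 fold changes of small RNA and mRNA had a weak correlation across genes (Pearson r = -0.08 and Spearman rho = -0.10 at 25°C, -0.11 and -0.03 at 20°C). Genes are not independent replicates, and all points of a comparison share the same libraries, so these are descriptions. Among the steepest small RNA losses at 25°C, those of ugt-31 and ugt-5 went with mRNA that was not called, and those of ugt-8 and ugt-37 with higher mRNA (log2 fold changes 2.09 ± 0.35 and 1.09 ± 0.33), and the large mRNA rise of ugt-66 at 25°C went with a small RNA change of -1.09 ± 0.60 that was not called.

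**Figure D5:**
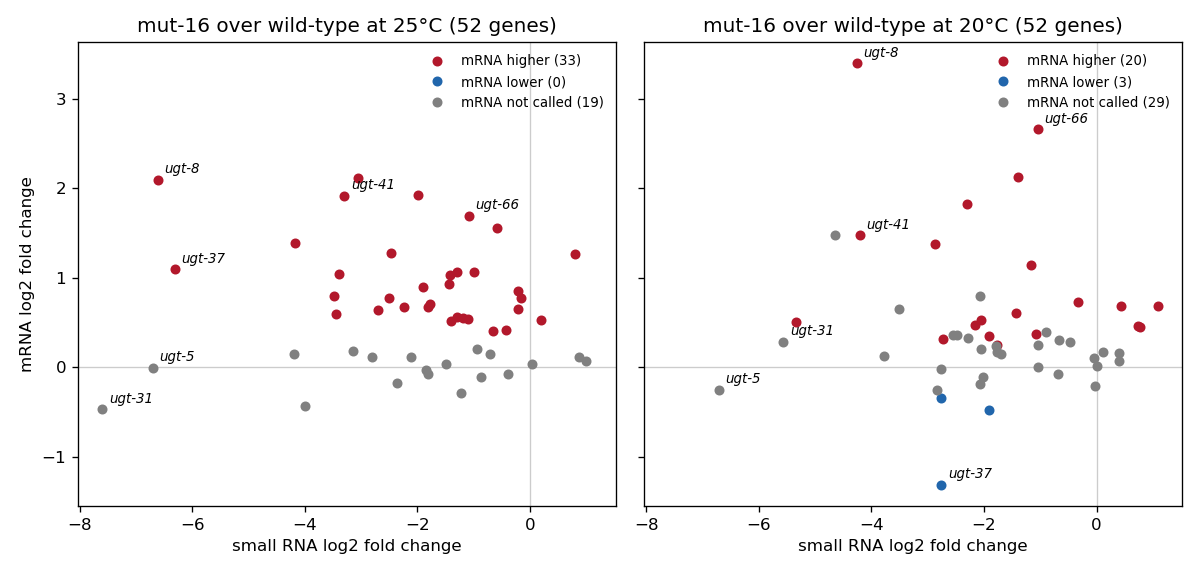
log2 fold change (mut-16 over wild-type) of mRNA against small RNA for the 52 ugt genes tested in both assays, at 25°C (left) and 20°C (right), coloured by the mRNA call. Points spread along the horizontal axis to below -6 with mRNA changes on either side of 0, and ugt-31 and ugt-5 lie far to the left near an mRNA change of 0.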

How the data were processed

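Messenger RNA and small RNA (18 to 30 nt) of whole adults were sequenced in 3 libraries per group, 12 per assay; 12 ATAC-seq samples were not analysed here. Per the labels and the study's methods, the authors trimmed reads with Cutadapt, aligned them with HISAT2 to the WS258 genome and quantified them with Salmon, and they deposited the estimated counts per gene. Software versions and the strand setting are not given in the sources used here. These estimated counts were rounded to whole numbers, and the 1060 gene names with more than 1 entry were summed. Whether replicates came from separate cultures is not stated beyond the words biological replicate, so p-values measure the spread between these samples.

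All 12 libraries of an assay entered 1 fit in edgeR 4.0.16 (R 4.3.3) with filterByExpr, TMM scaling and the robust quasi-likelihood F-test, and p-values were adjusted by Benjamini-Hochberg over all genes tested. The standard error was the log2 fold change divided by the normal deviate of its p-value. The differential expression test of the study is not stated, so this design was chosen here. Alternatives were DESeq2 1.42.0, total counts as scaling, no filter, a replicate block, a term for the letters RE in 10 mRNA titles, and each library left out. The scripts were tested on simulated counts. Intervals on ratios of few counts are exact at 95% and cover counting error only; depth was lowest in small RNA-seq, at 4760502 counts.

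Members and lists were chosen with earlier results of these data known. In each assay and comparison, up to 5 members per direction were named by absolute log2 fold change among called members whose libraries did not overlap between the 2 groups and whose higher group averaged 1 RPM or more. The 5 highest members per kilobase (mRNA over all libraries, small RNA over wild-type 20°C) and all members called in the mRNA difference of heat responses were also named; others, such as ugt-22 and ugt-44 in heat, ugt-23 and ugt-62 in small RNA and the members of the neighbour groups, were named to account for a count. Exon stretches, upstream windows and gene starts were read from the RefSeq WBcel235 genome with the Ensembl annotation by Python 3.11.15.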

Additional observations from a re-analysis of the deposited data

Results flagged for a closer look

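The heat responses of the genotypes, each the log2 fold change of 25°C over 20°C, differed by the interaction test of edgeR for 15 members in mRNA and 9 in small RNA, given here as mut-16 minus wild-type. In mRNA the difference was 0.46 for ugt-49, 0.66 for ugt-1, 0.90 for ugt-2, 0.36 for ugt-46, 0.46 for ugt-17, 1.01 for ugt-21, 0.71 for ugt-39, 2.41 for ugt-37, 0.40 for ugt-58, 0.81 for ugt-19, 0.44 for ugt-47, 0.82 for ugt-30, 1.52 for ugt-55 and 1.09 for ugt-11. For ugt-65 it was -0.60. ugt-1 was called lower in both genotypes, but its call in mut-16 mutants depends on the scaling and its RPM ranges there overlapped, and ugt-2 was called higher in mut-16 mutants and lower in wild-type animals. ugt-37 and ugt-11 had fewer than 6 RPM in every library, and the exons of ugt-37 overlap those of ugt-40.

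In small RNA the difference was 1.59 for ugt-40, 3.55 for ugt-38 and 1.34 for ugt-29, and -3.55 for ugt-37, -3.09 for ugt-32, -2.36 for ugt-8, -2.19 for ugt-62, -2.04 for ugt-31 and -1.33 for ugt-26. ugt-37, ugt-32 and ugt-38 rest on few counts in the mutants, 7 for ugt-37 and 3 for ugt-32 at 25°C and 2 for ugt-38 at 20°C. ugt-32 passed the filter on low counts only with the wild-type libraries at 25°C, and ugt-38 only with those at 20°C, where each was highest. The differences of ugt-32 and ugt-38 were partly set by the filter and are given as description. For ugt-62 the mut-16 libraries at 20°C were uneven, with 45.2 RPM in replicate 2 against 20.1 and 15.6 RPM in the other two. Of these calls, ugt-29, ugt-31 and ugt-37 kept their side of the threshold under every alternative run.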

How the results depend on the processing

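Of 84 results for members, 54 kept their direction and their side of the threshold under every alternative, and 30 lost the call under at least 1. Among these, 1 changed direction: the heat change of ugt-1 mRNA in mut-16 mutants was 0.0224 on the log2 scale under total counts (edgeR adjusted p = 0.882). Counts of called members moved by over 1.5 times as follows. Under total counts, mRNA members lower with heat in mut-16 mutants numbered 0, members with a higher difference of heat responses 24 and with a lower one 0, and members with higher small RNA after mut-16 loss at 20°C 1. Without the filter on low counts, 2 members had lower mRNA with mut-16 loss at 25°C, 15 had higher and 5 lower mRNA at 20°C, and 0 had a lower difference of heat responses. DESeq2 called 0 of that kind and 6 members with higher small RNA at 20°C; it called 16 with higher mRNA at 20°C. With RE as a covariate, 1 member was lower with heat in mut-16 mutants. The cause of these shifts was not tested, except that leaving genes unfiltered changes the number of genes tested.

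With a replicate block, the lower difference of heat responses had 0 members and higher small RNA at 20°C had 1; ugt-11 (edgeR adjusted p = 0.0602) and ugt-65 lost their mRNA difference and ugt-19 its small RNA call at 25°C. Same-numbered libraries correlated at -0.08 to 0.19 in mRNA and -0.13 to 0.08 in small RNA, with 4 and 0 of 18 pairs over 0.1. Differently numbered libraries were not compared in this way, so these values cannot decide whether the numbers pair the samples.

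Leaving out 1 library at a time gave these ranges. In mRNA, 1 to 2 members were lower with heat in mut-16 mutants, 0 to 3 lower with mut-16 loss at 25°C, 15 to 21 higher and 1 to 3 lower at 20°C, and 8 to 16 higher and 0 to 2 lower in the difference of heat responses. The low counts at 20°C came without mut-16 20°C replicate 1 (15 higher) and without replicate 2 of either genotype (1 lower). In small RNA, 4 to 11 were higher with heat in wild-type animals, 1 to 4 higher with mut-16 loss at 25°C, 0 to 2 higher at 20°C, and 1 to 7 higher and 3 to 6 lower in the difference. The 41 members with lower small RNA numbered 34 to 41 at 25°C and 40 to 43 at 20°C.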
